A study of Mus musculus with 12 samples.

Results

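Optic nerves of NF1 model mice given selumetinib were compared with the optic nerves of mice given PBS, over all expressed genes. The comparison takes 6 of the 12 libraries of the series: selumetinib 1 to 3 against PBS 4 to 6, where PBS is phosphate-buffered saline, chosen by their names in the deposited table. All 6 are poly(A) RNA of the optic nerve of mice that carry a model of neurofibromatosis type 1 (NF1), with no wild-type group used here. The labels give the same tissue and the cell type "Nerve cells" for all, and poly-T beads were used on column-purified RNA. PBS 1 to 3, the other libraries labelled PBS, are given beside the results as a second reference. The sources used here do not give the allele of the model, the dose, the schedule, the age or the sex, and the labels do not say whether each library is 1 animal or a pool. P-values then measure how far these samples vary, and that variation may be technical. The 3 PBS libraries held 23489372 to 29009101 counts and the 3 selumetinib libraries 21793052 to 25400782. Of 35275 listed genes, 24004 had a count in these 6 libraries and 17270 were tested.

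Selumetinib inhibits MEK1 and MEK2, the kinases that phosphorylate ERK. Neurofibromin, the product of Nf1, is a RAS GTPase-activating protein, so its loss raises signalling from RAS through RAF and MEK to ERK. Active ERK raises immediate early genes such as Fos, and it raises its own brakes, the DUSP phosphatases and the Sprouty and SPRED proteins, which are commonly read as a measure of the pathway's output. The optic nerve holds axons but no neuronal cell bodies. Its RNA comes mainly from oligodendrocytes, which make myelin, and from astrocytes, microglia, vessels and sheath cells. The nerve ends at the chiasm, which lies against the hypothalamus and near the pituitary.

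The 3 selumetinib libraries were not alike. A list of 22 general neuronal genes took 0.571% and 0.583% of the counts of selumetinib 1 and 2, against 0.109% of selumetinib 3 and 0.0809% to 0.149% of PBS 4 to 6. Hypothalamic genes took 0.504% and 0.413% of selumetinib 1 and 2 and 0.194% of selumetinib 3, against 0.0990% to 0.192% of PBS 4 to 6. Myelin protein genes took 3.48% and 2.5% of selumetinib 1 and 2, less than the 7.77% of selumetinib 3 and the 7.11% to 7.98% of PBS 4 to 6. Pomc, the precursor of melanocortins and a marker of the arcuate nucleus, was at 2.64, 0.993 and 4.398 CPM in PBS 4 to 6 and 147, 99.6 and 3.65 CPM in selumetinib 1 to 3. Agrp, the antagonist peptide of the same nucleus, was at 0.719, 0.579 and 0.1999 CPM in PBS 4 to 6 and 20.4, 23.3 and 0.601 CPM in selumetinib 1 to 3. Markers of neighbouring brain were thus high in selumetinib 1 and 2, while selumetinib 3 lay in or close to the range of PBS 4 to 6 in these lists. Selumetinib 3 and PBS 6 instead shared pituitary genes, which took 0.0511% and 0.0387% of their counts against 0.000123% to 0.00444% of the other 4 libraries. Prl, prolactin, was at 254 CPM in selumetinib 3 and 32.4 CPM in PBS 6. Gh, growth hormone, was at 144 CPM in selumetinib 3, 318 CPM in PBS 6 and 10.5 CPM in PBS 4. The correlation of log2 CPM over genes was 0.982 between selumetinib 1 and 2, 0.896 to 0.913 between these and selumetinib 3, and 0.969 to 0.977 between selumetinib 3 and PBS 4 to 6. Within PBS 4 to 6 it was 0.974 to 0.979. Levels are in CPM, counts scaled to the library total times its TMM factor, a scaling factor computed over the 12 libraries, and each result below is given with its value in selumetinib 3. The part of brain RNA in any difference of selumetinib 1 and 2 was not tested.

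**Figure D1:**
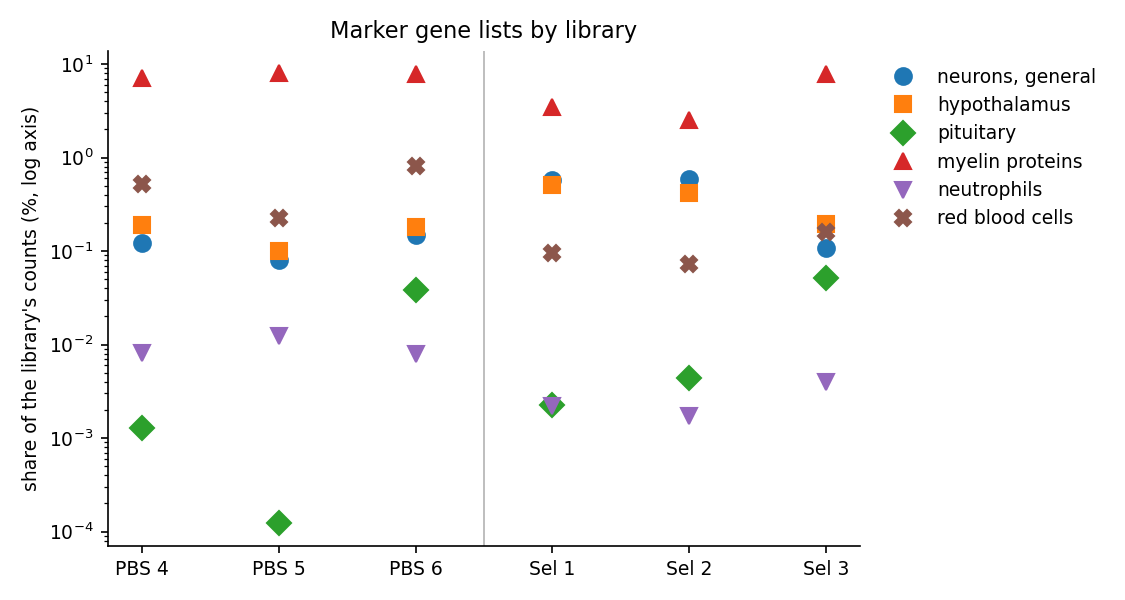
Share of each library's counts, in percent on a log axis, taken by 6 marker lists in PBS 4 to 6 and selumetinib 1 to 3 (Sel). Neuronal and hypothalamic genes are high and myelin genes low in selumetinib 1 and 2, pituitary genes are high in PBS 6 and selumetinib 3, and red blood cell genes are lower in all 3 selumetinib libraries.

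In the comparison of selumetinib with PBS 4 to 6, 6 of the 17270 genes (0.0347%) passed an adjusted p of 0.05 in edgeR's quasi-likelihood test, and all 6 were sex-linked. Xist, the RNA that silences 1 X chromosome in female cells, and its antisense partner Tsix were higher (0.0116%). Ddx3y, Eif2s3y, Kdm5d and Uty, on the Y chromosome, were lower (0.0232%). Xist was at 0.2797, 0.372 and 0.133 CPM in PBS 4 to 6 and 769, 695 and 985 CPM in selumetinib 1 to 3, with an edgeR adjusted p of 0.00145. Ddx3y, an RNA helicase, was at 115, 108 and 112 CPM in PBS 4 to 6 and had 0 counts in every selumetinib library, at least 985-fold lower when 3 counts per library are taken as the floor. On the same floor Eif2s3y was at least 285-fold lower, Kdm5d 251-fold, Uty 176-fold, and Tsix, with 0 counts in PBS 4 to 6, at least 368-fold higher. Tsix and Xist overlap on opposite strands, and the strand setting of the counting was not given, so their reads cannot be told apart. The treated libraries thus held no count of these 4 Y-linked genes, and Xist was at 0.133 to 0.372 CPM in the control libraries. Y-linked expression and treatment cannot be told apart in any result below. Outside the treated group, only PBS 1 and carboplatin 1, from a group given that chemotherapy drug, had 0 counts of these 4 genes, so a fit of the 12 libraries with Y-linked expression as a covariate rests on those 2 libraries. Of 9 genes of X inactivation and escape, 7 were higher in all 3 selumetinib libraries than in all PBS 4 to 6, against 12.5% of all genes tested. Among the 7, the translation factor gene Eif2s3x was at 71.4, 62.6 and 68.5 CPM in PBS 4 to 6 and 110.2, 115 and 104 CPM in selumetinib 1 to 3. Its log2 fold change was 0.69 ± 0.11 (SE, n = 3 per group, edgeR adjusted p 0.2198). Ddx3x, the X-linked partner of Ddx3y, was at 276, 276 and 264 CPM in PBS 4 to 6 and 349, 325 and 364 CPM in selumetinib 1 to 3, and Ftx, a non-coding RNA beside Xist, at 4.99, 4.63 and 6.36 CPM in PBS 4 to 6 and 11.5, 10.6 and 8.62 CPM in selumetinib 1 to 3. Both lay above all of PBS 4 to 6 in all 3 selumetinib libraries.

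No gene outside the sex chromosomes passed edgeR's test, and the smallest adjusted p among them was 0.0876, for Lcn2. At an unadjusted p under 0.05 edgeR gave 2629 genes higher (15.2%) and 1203 lower (6.97%). DESeq2 on the same 6 libraries called 1221 higher (7.07%) and 289 lower (1.67%), and limma voom with quality weights called 4831 and 4851. The voom weights were 0.105 for selumetinib 3 and 0.989 to 2.56 for the other 5 libraries. Without selumetinib 3, edgeR called 4560 genes higher and 4594 lower.

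Most genes that were 2-fold or more from PBS in selumetinib 1 and 2 were not so in selumetinib 3. Of 2437 genes at least 2-fold higher in the mean of selumetinib 1 and 2, 244 were also at least 2-fold higher in selumetinib 3. Of 2152 genes at least 2-fold lower, 90 were also at least 2-fold lower in selumetinib 3. All 3 selumetinib libraries lay above all of PBS 4 to 6 for 2152 genes (12.5%) and below them for 2234 (12.9%), and selumetinib 3 itself differed by at least 1.5-fold from the PBS mean in 473 (2.74%) and 258 (1.49%) of these. In a fit of all 12 libraries with selumetinib 3 as a group of its own, 0 of 19841 genes (0%) passed by edgeR, with 220 at an unadjusted p under 0.05 and no other tool run on that fit. With only selumetinib 3 and PBS 4 to 6 in the fit, 7 genes passed: the 6 sex-linked genes and Bpifa1. In both fits selumetinib 3 is a lone library that is assumed to vary like the others, and in the smaller fit the spread comes from PBS 4 to 6 alone. The results that follow are given as levels in each library and as counts of genes whose groups did not overlap, not as calls. Counts of non-overlapping list members stand against 12.5% above and 12.9% below over all genes tested. DESeq2 counts stand against 7.07% higher and 1.67% lower.

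**Figure D2:**
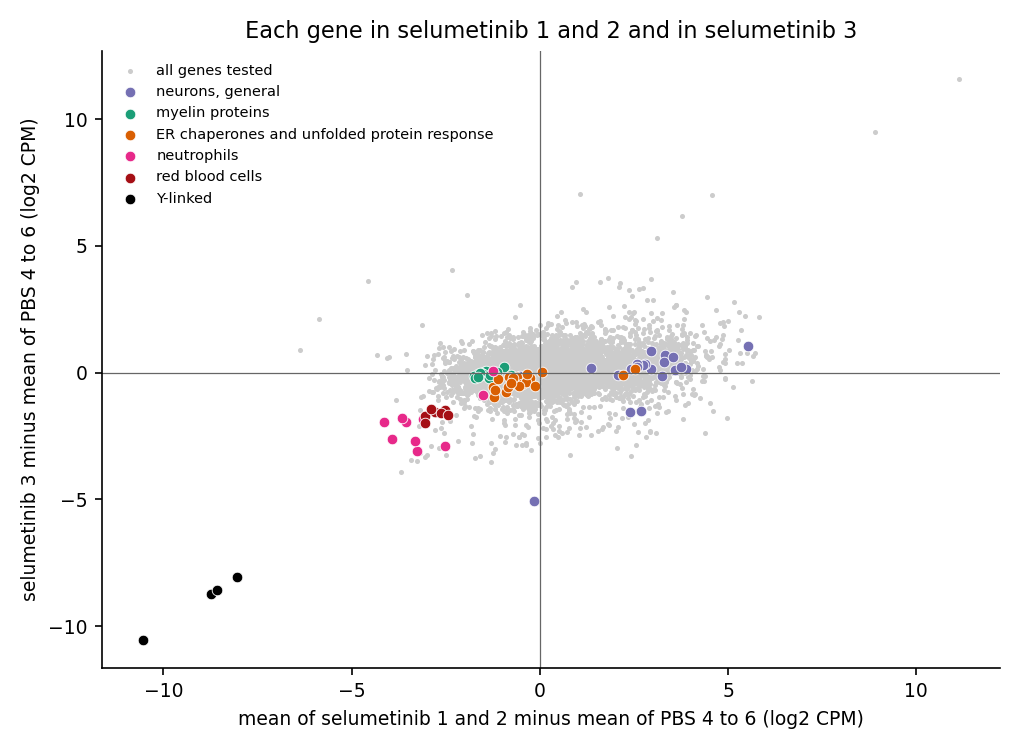
Each point is 1 of 17270 tested genes, with the log2 CPM difference of selumetinib 1 and 2 (mean) from the mean of PBS 4 to 6 on the x axis and that of selumetinib 3 on the y axis. Most neuronal and all myelin genes lie near 0 on the y axis, to the right and left of 0 on the x axis, while Y-linked, red blood cell and most neutrophil and ER chaperone genes lie below 0 on both.

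The feedback genes of ERK showed small differences. Of 12 tested, 0 passed by edgeR (1 and 1 had an unadjusted p under 0.05 on the higher and lower side, and 0 higher and 1 lower by DESeq2). In all, 2 lay below PBS 4 to 6 in all 3 selumetinib libraries and 0 lay above, against 12.9% and 12.5% of all genes tested. The list median was -0.18 on the log2 scale and -0.13 in selumetinib 3, against 0.01 in both over all genes. Dusp6, the cytosolic ERK phosphatase (chromosome 10, 99263231 to 99267489, mm10), was at 24.97, 21.5 and 21.02 CPM in PBS 4 to 6 and 18.4, 14.4 and 19.8 CPM in selumetinib 1 to 3, a log2 fold change of -0.37 ± 0.17 (SE, edgeR adjusted p 0.236). All 3 selumetinib values were below the lowest PBS value, selumetinib 3 by the smallest distance. Dusp10, a phosphatase that acts mainly on p38 and JNK, was at 16.7, 17.2 and 18.7 CPM in PBS 4 to 6 and 11.5, 10.2 and 13.9 CPM in selumetinib 1 to 3 (-0.58 ± 0.16, unadjusted edgeR p 0.0117, DESeq2 adjusted p 0.0273). Spry4, a Sprouty inhibitor of receptor signalling, was at 7.99, 8.89 and 7.996 CPM in PBS 4 to 6 and 11.7, 8.095 and 7.34 CPM in selumetinib 1 to 3, and the groups overlapped. Spry2 was at 20.3, 23.5 and 28.7 CPM in PBS 4 to 6 and 24.5, 22.5 and 21.9 CPM in selumetinib 1 to 3, also overlapping. Spred1, which brings neurofibromin to the membrane, was at 197, 192 and 194 CPM in PBS 4 to 6 and 210.2, 182 and 176 CPM in selumetinib 1 to 3. Spred3 was higher in selumetinib 1 and 2 (34 and 36.4 CPM) and within the PBS range in selumetinib 3 (12.3 CPM).

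Of 16 transcription factor and growth genes that ERK drives, 7 lay below all of PBS 4 to 6 in all 3 selumetinib libraries and 1 above, with a median of -0.39 and of -0.25 in selumetinib 3. edgeR called 0 of them (unadjusted p under 0.05 for 1 higher and 4 lower), and DESeq2 called 1 lower. Of all genes tested, 12.9% lay below and 12.5% above, and DESeq2 called 1.67% lower. Trib1, a pseudokinase that feeds back on MEK signalling (chromosome 15, 59648350 to 59657099, mm10), was at 24.2, 25.8 and 23.7 CPM in PBS 4 to 6 and 11.3, 9.66 and 16.7 CPM in selumetinib 1 to 3 (-0.98 ± 0.23, edgeR adjusted p 0.2198, DESeq2 adjusted p 0.00794). Hbegf, an EGF receptor ligand, was at 17.5, 16.1 and 15.3 CPM in PBS 4 to 6 and 12.7, 12.8 and 13.6 CPM in selumetinib 1 to 3 (-0.33 ± 0.13). Plaur, the urokinase receptor, was low throughout, at 1.36, 1.24 and 0.5997 CPM in PBS 4 to 6 and 0.533, 0.428 and 0.343 CPM in selumetinib 1 to 3. Epha2, an ephrin receptor, was at 5.47, 5.09 and 4.997 CPM in PBS 4 to 6 and 2.77, 1.28 and 4.12 CPM in selumetinib 1 to 3. Trib1, Hbegf, Plaur and Epha2 also lay below PBS 1 to 3 in all 3 selumetinib libraries. Etv1, an ETS factor abundant in this nerve, was at 174, 182 and 185 CPM in PBS 4 to 6 and 87.6, 60.4 and 158 CPM in selumetinib 1 to 3, far lower in selumetinib 1 and 2 than in selumetinib 3. Etv5, a sister factor, showed the reverse, at 35.9, 45.3 and 41.4 CPM in PBS 4 to 6 and 39.6, 40.3 and 25.9 CPM in selumetinib 1 to 3, with selumetinib 3 as the only library below the PBS range. The ephrin receptor gene Epha4 was the member that was higher (0.24 on the log2 scale, 0.07 in selumetinib 3).

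Immediate early genes, which neural activity, stress and growth signals raise within minutes, differed in part. Of 22 tested, 10 lay below all of PBS 4 to 6 in all 3 selumetinib libraries and 0 above, with a median of -0.49 and of -0.22 in selumetinib 3. edgeR called 0 (unadjusted p under 0.05 for 1 higher and 8 lower), and DESeq2 called 3 lower. The shares over all genes tested were 12.9% below and 12.5% above, with 1.67% called lower by DESeq2. Fos was at 21.1, 25.7 and 23.8 CPM in PBS 4 to 6 and 8.71, 6.38 and 13.6 CPM in selumetinib 1 to 3 (-1.31 ± 0.29, edgeR adjusted p 0.2198, DESeq2 adjusted p 0.00481). Jun, its partner in AP-1, was at 108, 113 and 116 CPM in PBS 4 to 6 and 55.1, 55.03 and 83.8 CPM in selumetinib 1 to 3 (-0.80 ± 0.20, DESeq2 adjusted p 0.01302), and Junb at 15.1, 19.7 and 15.2 CPM in PBS 4 to 6 and 11.9, 10.1 and 13.5 CPM in selumetinib 1 to 3. Arc, a synaptic plasticity gene also found in immune cells, was at 24.5, 27.3 and 32.5 CPM in PBS 4 to 6 and 15.6, 14.3 and 21.3 CPM in selumetinib 1 to 3. Egr1, a standard ERK target, did not separate the groups: 16.6, 9.47 and 14.7 CPM in PBS 4 to 6 and 13.6, 11.8 and 9.696 CPM in selumetinib 1 to 3. Of the 10, 6 (Jun, Junb, Jund, Fosb, Klf4 and Dusp1) also lay below PBS 1 to 3, whereas Fos, with 36.8, 11.9 and 20.3 CPM in PBS 1 to 3, and Arc, with 13.6, 13.8 and 21.7 CPM in PBS 1 to 3, did not. Over all genes, all 3 selumetinib libraries lay below all 6 PBS libraries for 476 (2.76%) and above them for 547 (3.17%).

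**Figure D3:**
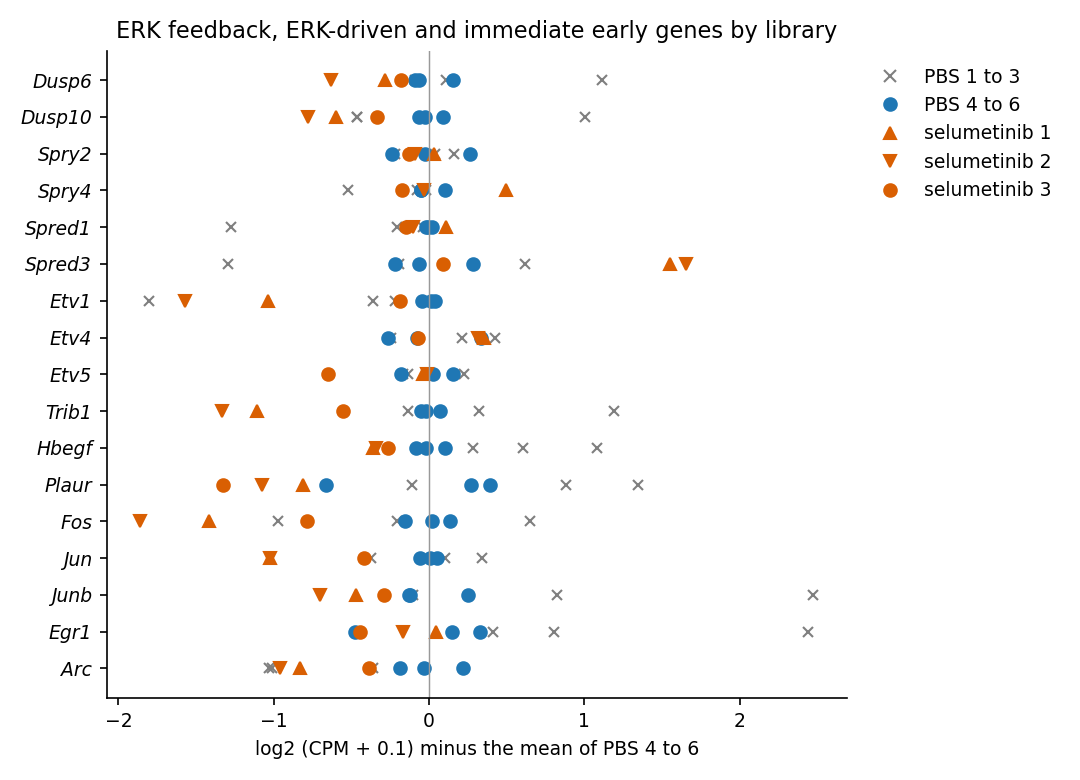
Log2 (CPM + 0.1) of 17 ERK feedback, ERK-driven and immediate early genes in each library, as the difference from the mean of PBS 4 to 6 (x axis), with PBS 1 to 3 as crosses. Trib1, Hbegf, Plaur, Jun and Junb have all 3 selumetinib libraries to the left of every PBS library, while Spry2, Spry4 and Egr1 overlap with PBS 4 to 6.

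Nf1 itself, the gene the model is named for (chromosome 11, 79339693 to 79581612, mm10), was at 75.9, 78.8 and 78.5 CPM in PBS 4 to 6 and 77.03, 68.1 and 71.4 CPM in selumetinib 1 to 3, and the groups overlapped (-0.12 ± 0.10). Without a wild-type group this level checks no label. Of 9 RAS GTPase-activating genes, 2 lay below PBS 4 to 6 in all selumetinib libraries, among them Rasa2, at 57.01, 55.2 and 46.04 CPM in PBS 4 to 6 and 41.8, 39.9 and 38.3 CPM in selumetinib 1 to 3 (-0.41 ± 0.12). Of 22 RAS, RAF, MEK and ERK kinase genes, 4 lay above and 7 below PBS 4 to 6, with medians of 0.10 and of -0.06 in selumetinib 3, so members of the cascade lay on both sides. Among 15 receptor tyrosine kinase genes 4 lay below and 0 above, with a median of -0.48 and of -0.08 in selumetinib 3. Over all genes tested 12.5% lay above and 12.9% below.

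A difference shared by all 3 selumetinib libraries was in chaperones of the endoplasmic reticulum (ER). These fold proteins on their way out of the cell and are raised by the unfolded protein response. Of 21 tested, 15 lay below all of PBS 4 to 6 in all 3 selumetinib libraries and 0 above, with a median of -0.53 and of -0.38 in selumetinib 3. edgeR called 0 of them (unadjusted p under 0.05 for 1 higher and 14 lower), and DESeq2 called 1 higher and 10 lower. Of all genes tested, 12.9% lay below, and DESeq2 called 7.07% higher and 1.67% lower. Hspa5, the gene of BiP, the main ER chaperone (chromosome 2, 34771970 to 34777547, mm10), was at 700.4, 692 and 606 CPM in PBS 4 to 6 and 372, 355 and 385 CPM in selumetinib 1 to 3, which is -0.86 ± 0.13 on the log2 scale (SE, edgeR adjusted p 0.2198, DESeq2 adjusted p 8.13e-11). All 3 selumetinib values lay well below the lowest PBS value, and they differed little among themselves.

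Sdf2l1, which holds BiP on its clients, was at 34.9, 31.4 and 32.6 CPM in PBS 4 to 6 and 15.2, 13.4 and 16.99 CPM in selumetinib 1 to 3 (-1.13 ± 0.14, edgeR adjusted p 0.2198, DESeq2 adjusted p 2.40e-10). Xbp1, the transcription factor of the IRE1 arm, was at 138, 135 and 132 CPM in PBS 4 to 6 and 93.8, 94.5 and 94.7 CPM in selumetinib 1 to 3 (-0.53 ± 0.09, DESeq2 adjusted p 2.16e-09). Manf, a secreted protein that binds BiP, was at 110.2, 110.4 and 98.3 CPM in PBS 4 to 6 and 64.9, 55.03 and 71.5 CPM in selumetinib 1 to 3. Selumetinib 3 sat with selumetinib 1 and 2 in Hspa5, Sdf2l1, Xbp1 and Manf, unlike in the neuronal and myelin genes. It lay nearer to PBS 4 to 6 in other members of the list, such as Dnajc3. That gene was at 146, 124 and 238 CPM in selumetinib 1 to 3, against 279 to 296 CPM in PBS 4 to 6. Pdia4 and Creld2, which act on disulfide bonds, were at 63.6, 59.2 and 96.01 CPM and 18.96, 15.2 and 23.8 CPM in selumetinib 1 to 3, against 127 to 158 CPM and 32.4 to 43.5 CPM in PBS 4 to 6. The lectin chaperones Calr and Canx differed in size, with log2 fold changes of -0.66 and -0.23. Of the members whose groups overlapped, Hyou1, a large HSP70 of the ER, was at 177, 167 and 136 CPM in PBS 4 to 6 and 156, 142 and 109 CPM in selumetinib 1 to 3, and Atf4, the factor of the PERK arm, at 64.96, 65.6 and 65.03 CPM in PBS 4 to 6 and 64.6, 73.5 and 65.9 CPM in selumetinib 1 to 3. Asns, an amino acid synthesis gene that ATF4 drives, was high in selumetinib 1 and 2 alone, at 10.5, 6.08 and 8.196 CPM in PBS 4 to 6 and 46.3, 49.7 and 8.97 CPM in selumetinib 1 to 3.

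The reference point matters for this list, because PBS 4 to 6 stood above the other PBS libraries of the series. Hspa5 was at 317, 283 and 287 CPM in PBS 1 to 3, below all 3 selumetinib libraries. Xbp1 was at 111, 82.8 and 78.1 CPM in PBS 1 to 3 and Sdf2l1 at 15.8, 16.6 and 13.97 CPM in PBS 1 to 3. Of the 15 genes lower than PBS 4 to 6, 1 (Ddit3, the factor CHOP) was also below all 6 PBS libraries. It was at 31.8, 40.6 and 37.5 CPM in PBS 4 to 6, 47.7, 31.6 and 33.5 CPM in PBS 1 to 3 and 22.6, 22.5 and 31.2 CPM in selumetinib 1 to 3. Selumetinib 3 was thus only just below PBS 2 and PBS 4 in this gene. In 6 of the 15, both PBS 2 and PBS 3 lay below all 3 selumetinib libraries, as in 61 of the 2234 genes lower over all genes tested. With PBS 2 and 3 as controls, the log2 fold change of Hspa5 was 0.38, that of Xbp1 0.23 and that of Calr 0.14, the opposite direction. PBS 1 is of less use here, since skeletal muscle genes took 8.09% of its counts.

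The ER stress response element is the DNA sequence through which ATF6 and NF-Y raise many of these genes. Its full form, CCAAT and CCACG with any 9 bases between them, was searched on both strands of the 250 bases before the start of each gene in RefSeq (GRCm38.p6). It was found in 7 of the 19 list genes that have such a window, against 35 of 27025 gene symbols (0.13%) and 37 of 32851 windows of that length (0.113%). The list was written from known genes of this response, so its high share is no independent result. The sites of these 7 genes are shown because the element is the best known regulatory sequence of these chaperones, each 5′ to 3′ on the strand of the motif with its fixed letters in capitals and 5 bases on each side.
Hspa5, chr2:34772020-34772048, + strand: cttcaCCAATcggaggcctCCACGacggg
Calr, chr8:84847070-84847098, + strand: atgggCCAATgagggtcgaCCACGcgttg
Canx, chr11:50325795-50325823, - strand: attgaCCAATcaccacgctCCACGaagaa
Creld2, chr15:88819515-88819543, - strand: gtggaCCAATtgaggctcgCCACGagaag
Dnajc3, chr14:118937822-118937850, + strand: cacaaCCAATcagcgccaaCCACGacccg
Hsp90b1 upstream site, chr10:86705633-86705661, - strand: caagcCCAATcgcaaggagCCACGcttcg
Hsp90b1 downstream site, chr10:86705528-86705556, + strand: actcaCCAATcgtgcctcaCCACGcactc
Pdia6, chr12:17266486-17266514, + strand: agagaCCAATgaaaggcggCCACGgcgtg

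The sites lay 65 bases (Hspa5) to 212 bases (Hsp90b1) before the RefSeq start, and those of Calr, Creld2 and 1 of the 2 of Hsp90b1 ran opposite to the gene. The site of Hspa5 lies within a longer transcript of the gene in GENCODE M21, and the other sites lie in no GENCODE transcript of their gene. All 7 genes lay below PBS 4 to 6 in all 3 selumetinib libraries, with log2 fold changes of -1.003 to -0.23 and a median of -0.66. Of the 12 genes without the full letters, 7 did so as well, and their median was -0.49. The difference between the genes with and without the full letters was not tested. Hsp90b1, the gene of the ER HSP90, was at 583, 528 and 507 CPM in PBS 4 to 6 and 391, 359 and 436 CPM in selumetinib 1 to 3. Its promoter carries the motif 2 times in opposite directions, as the stretch of the gene's strand from chr10:86705510-86705694 shows, with the letters of both sites in capitals.
Hsp90b1 promoter: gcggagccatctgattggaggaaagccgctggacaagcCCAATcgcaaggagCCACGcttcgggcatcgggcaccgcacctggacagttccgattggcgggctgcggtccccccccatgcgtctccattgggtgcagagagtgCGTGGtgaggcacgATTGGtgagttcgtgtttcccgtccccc

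**Figure D4:**
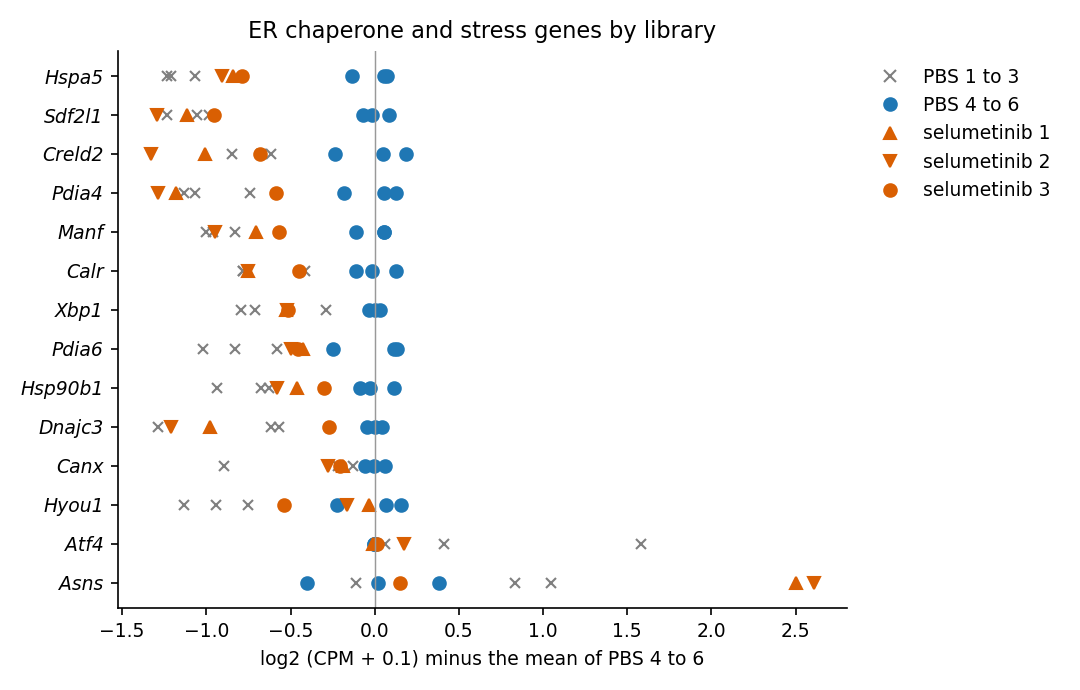
Log2 (CPM + 0.1) of ER chaperone and unfolded protein response genes in each library, as the difference from the mean of PBS 4 to 6 (x axis), with PBS 1 to 3 as crosses. Hspa5, Sdf2l1 and Xbp1 have all 3 selumetinib libraries to the left of PBS 4 to 6, and the crosses of PBS 1 to 3 lie left of PBS 4 to 6 as well.

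The cytosolic heat shock genes differed between the selumetinib libraries. Of 15, 5 lay below and 1 above PBS 4 to 6 in all 3 selumetinib libraries. The median was 0.08, with 0.13 in selumetinib 1 and 2 and -0.30 in selumetinib 3. Selumetinib 3 itself lay below PBS 4 to 6 in 10 and above in 1, against 25.3% and 26.6% of all genes tested. edgeR called 0 (unadjusted p under 0.05 for 2 higher and 3 lower), and DESeq2 called 2 lower. Over all genes tested 12.9% lay below and 12.5% above, and DESeq2 called 1.67% lower. Hspa1b, an inducible HSP70, was at 53.1, 71.8 and 17.02 CPM in PBS 4 to 6 and 4.27, 4.03 and 5.79 CPM in selumetinib 1 to 3, and its near-identical copy Hspa1a at 21.8, 32.97 and 14.1 CPM in PBS 4 to 6 and 6.65, 7.31 and 7.59 CPM in selumetinib 1 to 3. Reads of the pair may be split between them by the counting. Both were also below PBS 1 to 3, with Hspa1b at 67.8, 5.91 and 5.81 CPM in PBS 1 to 3, the last 2 of them close to selumetinib 3. Dnajb1, a co-chaperone of HSP70, was the member above PBS 4 to 6, at 26.1, 24.4 and 21.7 CPM in PBS 4 to 6 and 36.5, 41.6 and 28.3 CPM in selumetinib 1 to 3. Hspb1, a small heat shock protein, was at 71.4, 66.5 and 54.1 CPM in PBS 4 to 6 and 14.5, 17.7 and 51.2 CPM in selumetinib 1 to 3, with selumetinib 3 just under the PBS range.

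Neutrophil and red blood cell genes had the lowest medians in selumetinib 3 of the 57 lists plotted by their medians. Of 10 neutrophil genes, 9 lay below PBS 4 to 6 in all 3 selumetinib libraries, with a median of -3.23 and of -1.94 in selumetinib 3. edgeR called 0 (at an unadjusted p under 0.05, 9 lower) and DESeq2 called 9 lower. Of all genes tested, 12.9% lay below and DESeq2 called 1.67% lower. Lcn2, a siderophore-binding protein of neutrophils and reactive astrocytes (chromosome 2, 32384633 to 32388252, mm10), was at 5.67, 6.62 and 3.66 CPM in PBS 4 to 6 and 0.427, 0.535 and 0.386 CPM in selumetinib 1 to 3 (-3.56 ± 0.35, edgeR adjusted p 0.0876, DESeq2 adjusted p 5.55e-14). Ngp, a neutrophil granule protein, was at 12.4, 16.5 and 7.53 CPM in PBS 4 to 6 and 0.996, 1.21 and 1.72 CPM in selumetinib 1 to 3 (-3.22 ± 0.39, DESeq2 adjusted p 7.56e-12), and S100a8 and S100a9, the calprotectin pair, were at 2.098, 0.642 and 1.29 CPM and 2.99, 1.498 and 5.19 CPM in selumetinib 1 to 3 against 7.67 to 19.8 CPM and 15.4 to 24.4 CPM in PBS 4 to 6. The exception was Csf3r, the G-CSF receptor, which microglia also express, at 20.6, 22.6 and 22.1 CPM in PBS 4 to 6 and 8.96, 9.52 and 22.4 CPM in selumetinib 1 to 3. The list took 0.00789% to 0.0125% of the counts of PBS 4 to 6 and 0.00173% to 0.00395% of those of selumetinib 1 to 3. Here too PBS 4 to 6 stood high, since Ngp was at 0.429, 0.971 and 0.165 CPM in PBS 1 to 3 and Lcn2 at 1.91, 0.338 and 1.32 CPM in PBS 1 to 3. In Lcn2, PBS 2 lay below all 3 selumetinib libraries. With PBS 2 and 3 as controls the log2 fold changes of Ngp, S100a8 and S100a9 were 1.22, 1.005 and 0.41, the opposite direction. Ltf, lactoferrin, was the 1 member of the list also below all 6 PBS libraries, at 8.59, 13.6 and 7.596 CPM in PBS 4 to 6 and 0.889, 0.357 and 1.502 CPM in selumetinib 1 to 3 and 67.2, 17.7 and 51.3 CPM in PBS 1 to 3. Its levels in PBS 1 to 3 were above those in PBS 4 to 6, whereas those of Ngp, S100a8 and S100a9 were below. Ltf thus did not follow these genes across the PBS libraries.

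All 7 red blood cell genes lay below PBS 4 to 6, with a median of -2.39 and of -1.57 in selumetinib 3. edgeR called 0 (at an unadjusted p under 0.05, 6 lower) and DESeq2 called 6 lower. Hbb-bs, a beta globin with near-identical copies, was at 2395, 1154 and 3905 CPM in PBS 4 to 6 and 454, 333 and 788 CPM in selumetinib 1 to 3, and Alas2, the first enzyme of haem synthesis in erythroid cells, at 117, 48.7 and 172 CPM in PBS 4 to 6 and 16.9, 8.77 and 24.97 CPM in selumetinib 1 to 3. The list took 0.225% to 0.819% of the counts of PBS 4 to 6 and 0.0725% to 0.161% of selumetinib 1 to 3. None of the 7 was below all 6 PBS libraries, and Hbb-bs was at 747, 286 and 122 CPM in PBS 1 to 3. With PBS 2 and 3 as controls, Hbb-bs and Alas2 were at 1.37 and 0.46 on the log2 scale, and Ms4a1, a B cell gene described next, at 0.79. In bulk RNA, fewer cells of a type and less RNA per cell cannot be told apart. Of 16 lymphocyte genes, 8 lay below and 1 above PBS 4 to 6, and DESeq2 called 3 lower. The shares over all genes tested were 12.9% below and 12.5% above, with 1.67% called lower by DESeq2. The B cell genes Ms4a1 (CD20) and Cd79a were at 0.178, 0.392 and 0.386 CPM and 1.17, 1.43 and 1.76 CPM in selumetinib 1 to 3, against 1.53 to 2.56 CPM and 3.06 to 3.68 CPM in PBS 4 to 6. The heavy chain gene Ighm was at 22.7, 21.01 and 19.4 CPM in PBS 4 to 6 and 10.6, 11.7 and 15.9 CPM in selumetinib 1 to 3. None of these 8 was below all 6 PBS libraries. Lyve1, a marker of border macrophages and lymphatic vessels, was at 13.1, 12.7 and 13.4 CPM in PBS 4 to 6 and 3.09, 1.96 and 7.98 CPM in selumetinib 1 to 3.

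Clock genes lay on both sides of PBS 4 to 6. Of 18, 6 lay above and 3 below PBS 4 to 6 in all 3 selumetinib libraries, the lower side near its share over all genes. The median was 0.07 and 0.10 in selumetinib 3. DESeq2 called 4 higher and 1 lower. Over all genes tested 12.5% lay above and 12.9% below, and DESeq2 called 7.07% higher and 1.67% lower. Dbp, an output factor of the clock, was at 34.2, 41.5 and 32.9 CPM in PBS 4 to 6 and 63.6, 60.7 and 55.4 CPM in selumetinib 1 to 3 (0.72 ± 0.13, edgeR adjusted p 0.2198). Per2 and Per3, the repressor arm, were at 23.3, 17.3 and 17.5 CPM and 37.9, 45.6 and 42.5 CPM against 9.89 to 12.8 CPM and 28.6 to 32.4 CPM in PBS 4 to 6, and Cry2 was at 42.6, 42.4 and 34.4 CPM in PBS 4 to 6 and 71.7, 79.99 and 44.6 CPM in selumetinib 1 to 3. Npas2, a partner of BMAL1 that peaks in the opposite phase, was at 11.8, 11.002 and 11.2 CPM in PBS 4 to 6 and 7.33, 7.77 and 6.13 CPM in selumetinib 1 to 3, below every PBS 4 to 6 value. These levels were ordered otherwise against the other PBS libraries, where Dbp was at 245, 169 and 180.3 CPM in PBS 1 to 3, and with PBS 2 and 3 as controls the log2 fold changes of Dbp and Npas2 were -1.54 and 0.21. Of the 6 genes above PBS 4 to 6, 0 were above both PBS 2 and PBS 3 in all 3 selumetinib libraries. In 2 of the 6, PBS 2 and PBS 3 lay above all 3 selumetinib libraries. Of the 3 genes below PBS 4 to 6, 0 were below both, and in 1 both PBS 2 and PBS 3 lay below all 3 selumetinib libraries. The sources used here give no hour of collection.

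Among other genes with all 3 selumetinib libraries above PBS 4 to 6, several were neuronal and much higher in selumetinib 1 and 2. Cbln4, a synapse organiser, was at 1.76, 0.662 and 1.17 CPM in PBS 4 to 6 and 30.1, 31.3 and 6.52 CPM in selumetinib 1 to 3, Isl1, a neuronal transcription factor, at 0.3995, 0.124 and 1.47 CPM in PBS 4 to 6 and 19.8, 27.8 and 2.402 CPM in selumetinib 1 to 3, and Otp, a factor of hypothalamic neurons, at 5.55, 2.32 and 5.26 CPM in PBS 4 to 6 and 59.1, 34.98 and 8.79 CPM in selumetinib 1 to 3. Ebf4, Plxdc1, Efna3, Cnih3 and Actl6b had differences of 0.99, 0.79, 0.96, 1.49 and 1.12 on the log2 scale in selumetinib 3, and of 1.79, 1.90, 2.86, 3.78 and 3.54 in selumetinib 1 and 2. Chga, chromogranin A of neuroendocrine cells, was at 28.5, 10.5 and 134 CPM in PBS 4 to 6 and 155, 170.2 and 213 CPM in selumetinib 1 to 3, high in all selumetinib libraries and in PBS 6. Gli1, the transcription factor that reports hedgehog signalling, lay above PBS 4 to 6 by 0.80 in selumetinib 3 and 0.54 in selumetinib 1 and 2, at 11.1, 9.27 and 11.1 CPM in PBS 4 to 6 and 14.6, 16.3 and 18.2 CPM in selumetinib 1 to 3 (0.63 ± 0.16), and Pet112, a mitochondrial tRNA amidotransferase subunit, was at 10.3, 9.64 and 9.63 CPM in PBS 4 to 6 and 14.01, 15.7 and 16.4 CPM in selumetinib 1 to 3. Spag4 and H2-Q2 were low in PBS 4 to 6 (1.16 to 1.36 and 0.207 to 1.999 CPM) and at 5.16, 4.42 and 2.62 CPM and 21.3, 34.7 and 3.17 CPM in selumetinib 1 to 3. On the lower side, Etnppl, an astrocyte lipid enzyme, was at 131, 123 and 119 CPM in PBS 4 to 6 and 96.6, 87.1 and 75.4 CPM in selumetinib 1 to 3, Tma16 at 8.87, 10.2 and 10.3 CPM in PBS 4 to 6 and 8.57, 7.13 and 5.62 CPM in selumetinib 1 to 3 and Zfp41 at 22.8, 28.5 and 22.4 CPM in PBS 4 to 6 and 12.02, 12.8 and 14.3 CPM in selumetinib 1 to 3.

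Oligodendrocyte genes were lower mostly in selumetinib 1 and 2. Of 22 myelin protein genes, 7 lay below PBS 4 to 6 in all 3 selumetinib libraries, with a median of -1.39 in selumetinib 1 and 2 and of -0.06 in selumetinib 3. edgeR called 0 (at an unadjusted p under 0.05, 1 lower), and DESeq2 called 1 lower. Of all genes tested, 12.9% lay below and DESeq2 called 1.67% lower. Mbp, myelin basic protein, was at 24293, 29739 and 29305 CPM in PBS 4 to 6 and 11968, 8311 and 28172 CPM in selumetinib 1 to 3, and selumetinib 3 lay inside the PBS range. Ermn, a late oligodendrocyte protein, was at 878, 1006 and 899 CPM in PBS 4 to 6 and 351, 229 and 806 CPM in selumetinib 1 to 3. Among 15 precursor genes, 6 lay below, with a median of -0.14 in selumetinib 3. Olig2, the lineage factor, was at 113, 119 and 115 CPM in PBS 4 to 6 and 57.1, 52.2 and 83.01 CPM in selumetinib 1 to 3, also below in selumetinib 3. Omg, a myelin-associated glycoprotein whose gene lies within an intron of Nf1, was at 116, 123 and 113 CPM in PBS 4 to 6 and 94.3, 86.8 and 96.4 CPM in selumetinib 1 to 3. Sox9, a factor of astrocytes and glial progenitors, was at 118, 119 and 100.3 CPM in PBS 4 to 6 and 76.8, 63.7 and 85.8 CPM in selumetinib 1 to 3. Of 21 genes of fatty acid and sphingolipid synthesis, which supply myelin lipid, 15 lay below PBS 4 to 6, with a median of -0.44 and of -0.13 in selumetinib 3. Fasn, fatty acid synthase, was at 434, 410.4 and 401 CPM in PBS 4 to 6 and 339, 291 and 365 CPM in selumetinib 1 to 3, and Scd2, a desaturase, at 5080.2, 5318 and 4999 CPM in PBS 4 to 6 and 3674, 3241 and 4459 CPM in selumetinib 1 to 3. Of the 15, 2 were also below both PBS 2 and PBS 3, and none was below all 6 PBS libraries. The list took 0.276% of the counts of PBS 1, against 0.969% and 1.05% of PBS 2 and 3. edgeR and DESeq2 called 0 of the list, with 5 lower at an unadjusted p under 0.05 in edgeR. The lower values of these glial lists came with higher neuronal shares in selumetinib 1 and 2, and the part of the latter was not tested. In a fit of all 12 libraries with Y-linked expression as a covariate, the log2 fold changes of Omg, Sox9 and Scd2 were 0.43, 0.21 and 0.31, the opposite direction. That fit rests on PBS 1 and carboplatin 1, and PBS 1 had low values of these genes: Omg was at 30.8, 81.3 and 120.1 CPM in PBS 1 to 3, Sox9 at 51.2, 110.1 and 125 CPM in PBS 1 to 3 and Scd2 at 1334, 4248 and 4864 CPM in PBS 1 to 3. In carboplatin 1 to 3, Omg was at 57.3, 61.3 and 52.9 CPM, Sox9 at 116, 175.5 and 131 CPM and Scd2 at 4220, 3892 and 4008 CPM.

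Immune presentation and interferon genes, taken as lists, were lower in selumetinib 1 and 2 but not in selumetinib 3. The MHC class II, MHC class I and interferon lists took 0.0492%, 0.115% and 0.0992% of the counts of selumetinib 3. In PBS 4 to 6 these lists took 0.0334% to 0.0498%, 0.0932% to 0.119% and 0.0721% to 0.1%. Of 10 MHC class II genes, 0 had the groups apart, while selumetinib 3 alone lay above PBS 4 to 6 in 5. The median was -1.44 in selumetinib 1 and 2 and 0.25 in selumetinib 3. Cd74, the invariant chain, was at 197, 132 and 171 CPM in PBS 4 to 6 and 54.4, 58.7 and 183 CPM in selumetinib 1 to 3, and H2-Aa at 76.1, 50.999 and 72.8 CPM in PBS 4 to 6 and 22.7, 24.6 and 86.6 CPM in selumetinib 1 to 3. Of 14 MHC class I genes, selumetinib 3 lay above PBS 4 to 6 in 7, and of 23 interferon response genes in 11. Over all genes tested, selumetinib 3 lay above PBS 4 to 6 in 26.6% and below in 25.3%. Their medians in selumetinib 3 were 0.15 and 0.26, against -0.96 and -1.14 in selumetinib 1 and 2. Of 20 homeostatic and 19 disease-associated microglial genes, 8 and 9 lay below PBS 4 to 6 in all 3 libraries, with medians of -0.12 and -0.11 in selumetinib 3. The share below in all 3 libraries was 12.9% over all genes tested.

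**Figure D5:**
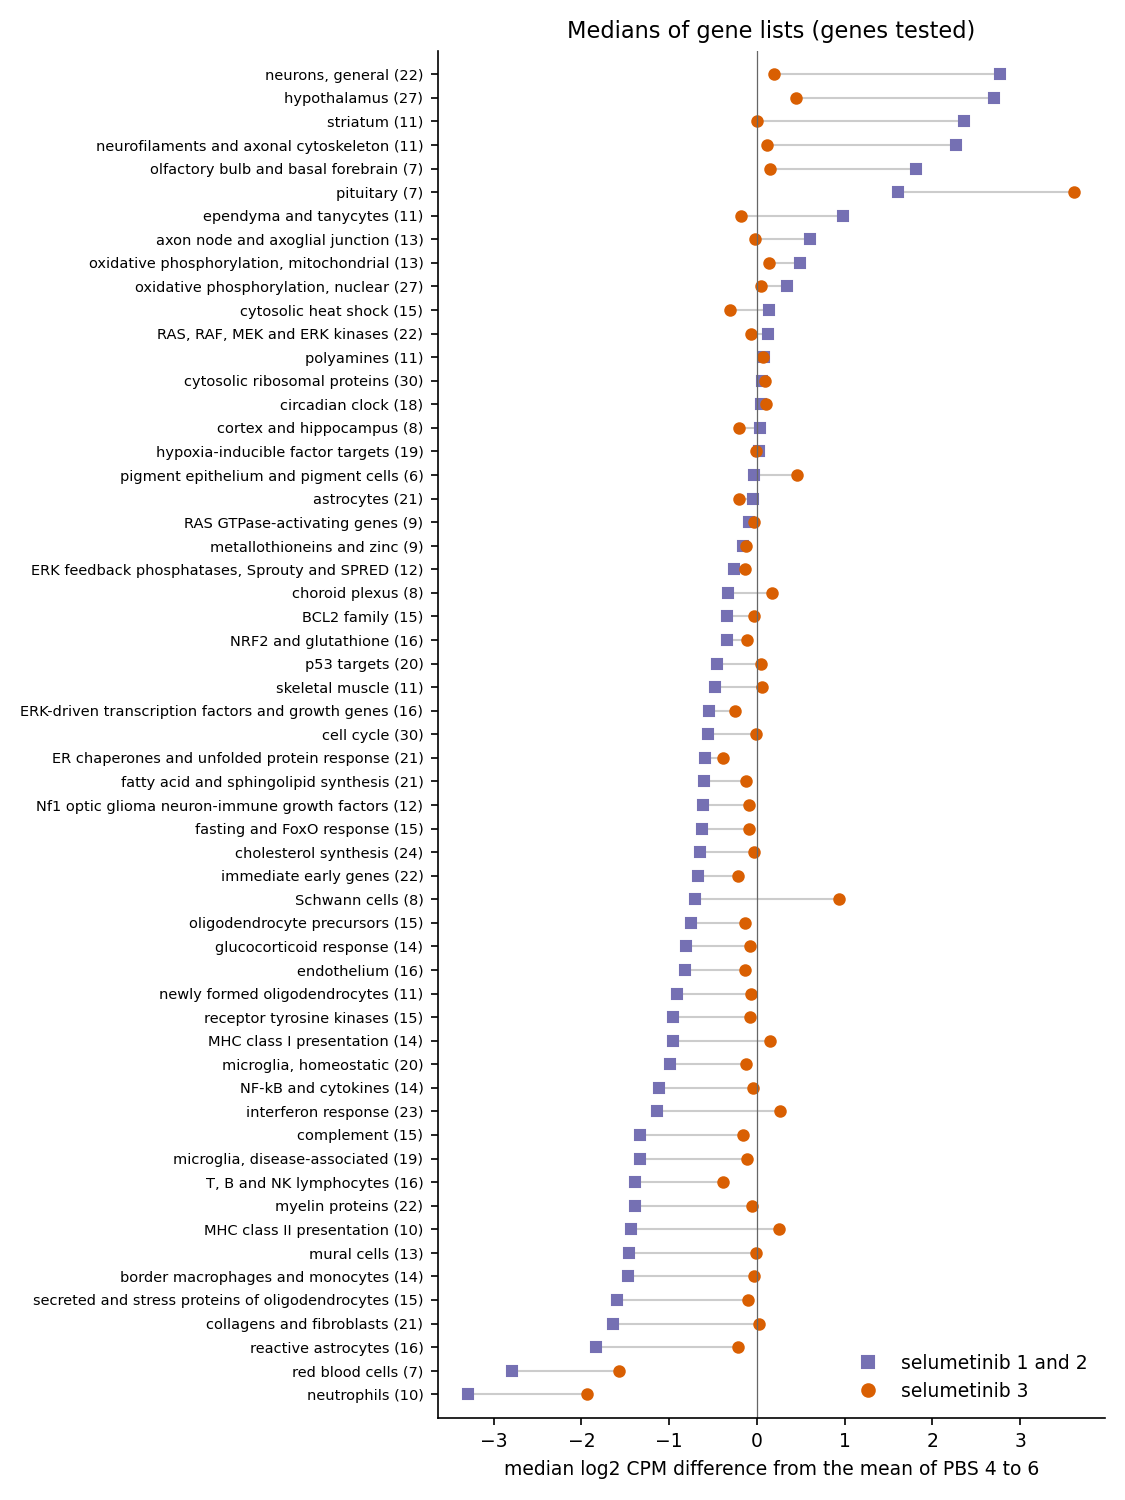
Median log2 difference from PBS 4 to 6 (x axis) over the tested members of 57 gene lists, with 1 row per list (number of genes tested in parentheses), squares for selumetinib 1 and 2 and circles for selumetinib 3. Neutrophil and red blood cell lists have both marks far left of 0. The general neuronal and hypothalamic lists have the square far right and the circle nearer to 0, at 0.19 and 0.44. MHC class II and interferon lists have the square left and the circle slightly right of 0.

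Neuronal and hypothalamic genes were higher in selumetinib 1 and 2. Of 22 general neuronal genes, 3 lay above and 1 below PBS 4 to 6 in all 3 selumetinib libraries, and DESeq2 called 16 higher. Over all genes tested 12.5% lay above and 12.9% below, and DESeq2 called 7.07% higher. The median was 2.77 in selumetinib 1 and 2 and 0.19 in selumetinib 3. Snap25, a synaptic vesicle fusion protein, was at 75.5, 50.3 and 82.96 CPM in PBS 4 to 6 and 496, 579.6 and 74.9 CPM in selumetinib 1 to 3, and Slc17a6, a glutamate transporter of hypothalamic neurons, at 5.07, 1.49 and 4.83 CPM in PBS 4 to 6 and 129, 199.8 and 6.95 CPM in selumetinib 1 to 3. Sst, somatostatin, was at 1.44, 0.951 and 3.86 CPM in PBS 4 to 6 and 91.2, 94.04 and 1.37 CPM in selumetinib 1 to 3, with selumetinib 3 inside the PBS range. Camk2a, a kinase abundant in forebrain neurons, was at 39.2, 37.3 and 361 CPM in PBS 4 to 6 and 426, 431 and 27.3 CPM in selumetinib 1 to 3, so PBS 6 stood apart from the other controls in this gene. Gad1, an enzyme of GABA synthesis, was at 0.858, 111 and 3.5 CPM in PBS 1 to 3, high in PBS 2. Both were chosen after their values were seen. Of 27 hypothalamic genes, 7 lay above PBS 4 to 6, 4 of them (Sim1, Otp, Rax and Ghrh) above all 6 PBS libraries, with a median of 0.44 in selumetinib 3. Sim1, a factor of the paraventricular nucleus, was at 2.48, 0.331 and 3.93 CPM in PBS 4 to 6 and 15.8, 11.8 and 4.89 CPM in selumetinib 1 to 3, and Ghrh, the growth hormone releasing hormone, at 0.3196, 0.0827 and 0.0666 CPM in PBS 4 to 6 and 6.44, 9.84 and 0.429 CPM in selumetinib 1 to 3. Selumetinib 3 thus lay above every PBS library in these 4 genes. In Sim1, Otp and Ghrh the distance was narrow, and Sim1 was at 3.93 CPM in PBS 6. Otp was at 7.64 CPM in PBS 2, and Ghrh was near the 3-count floor, which was 0.139 CPM in selumetinib 3. Cga, a pituitary hormone subunit, was at 0, 0 and 12.9 CPM in PBS 4 to 6 and 11.9, 8.35 and 54.1 CPM in selumetinib 1 to 3.

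Further cell type lists also had other medians in selumetinib 1 and 2 than in selumetinib 3. Their counts stand against 12.5% above and 12.9% below PBS 4 to 6 over all genes tested. Of 16 reactive astrocyte genes, 5 lay below PBS 4 to 6 in all 3 selumetinib libraries, with a median of -1.83 in selumetinib 1 and 2 and of -0.22 in selumetinib 3. Of 15 complement genes 5 lay below, with medians of -1.33 and -0.16, and of 21 collagen and fibroblast genes 3 lay below, with medians of -1.63 and 0.02. Of 11 neurofilament and axonal cytoskeleton genes, 3 lay above and 1 below, with medians of 2.27 and 0.12, and 9 were higher at an unadjusted p under 0.05 in edgeR. Of 11 striatal genes, 2 lay above and 1 below, with medians of 2.36 and 0.0047. Of 8 Schwann cell genes none had the groups apart, with medians of -0.70 and 0.94.

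Of 30 cytosolic ribosomal protein genes, 10 lay above PBS 4 to 6, with a median of 0.05, and none of the 10 was above all 6 PBS libraries. The shares over all genes tested were 12.5% above and 12.9% below PBS 4 to 6, and 3.17% above all 6 PBS libraries. Of 27 nuclear genes of oxidative phosphorylation, 12 lay above, with a median of 0.25 and of 0.05 in selumetinib 3, and 5 of 13 mitochondrial ones did. Of 30 cell cycle genes, 1 lay above and 5 below, with a median of -0.34 and of -0.01 in selumetinib 3. Of 24 cholesterol synthesis genes, 6 lay below, with a median of -0.04 in selumetinib 3. Of 12 growth factor genes of the neuron and immune circuit of Nf1 optic glioma, 3 lay below and 0 above, with a median of -0.41 and of -0.09 in selumetinib 3.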

How the data were processed

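The 12 libraries of the series are poly(A) RNA-seq of mouse optic nerve, and 6 of them were compared here. The authors deposited raw counts per gene in 1 table. The submitters' processing notes name STAR, HTSeq, Trimmomatic, FastQC, DESeq2 and the build mm10. The version of each, the annotation and the strand setting are not given in the sources used here, so genes that overlap or have near-identical copies are uncertain.

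Genes passing edgeR's filterByExpr (minimum count 10, minimum total 15) in the 6 libraries were fitted with TMM factors and edgeR 4.0.16 (robust quasi-likelihood test, R 4.3.3), with Benjamini-Hochberg adjustment over all genes tested and a threshold of 0.05. The SE is the log2 fold change divided by the root of the F statistic. Groups whose 3 log2 CPM values (prior count 2) did not overlap were counted. Printed CPM use TMM factors over all 12 libraries, whereas fold changes and overlap use those of the 6. The scripts were tested on simulated data, where the share of false calls ran above the threshold when each gene kept its own dispersion.

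Members and lists were chosen with earlier results of these data known. Genes named were those with the smallest p among non-overlapping genes, those with the largest gap between selumetinib 3 and the nearest of PBS 4 to 6, and members of the lists; some list members were chosen after their values were seen, and 1 is not reported here. Alternatives were DESeq2 1.42.0, limma 3.58.1 voom with quality weights, other factors, filters, controls and covariates, and leaving out each library. Totals of 21793052 to 29009101 counts per library set the precision, and the 3-count floors cover counting error only.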

Additional observations from a re-analysis of the deposited data

How the results depend on the processing

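Genes called stayed at 2 higher and 4 lower with RLE factors, no filter or a filter of 1 CPM in 3 libraries. DESeq2 gave 1221 and 289, and limma voom with quality weights 4831 and 4851. All 12 libraries in 4 groups, 11 libraries without PBS 1, all 6 PBS libraries as controls, and a Y-linked covariate each gave 0 and 0. Leaving out 1 library at a time gave 0 to 4560 higher and 0 to 4594 lower: both upper values came without selumetinib 3, without PBS 4 there were 0 and 0, without PBS 5 or PBS 6 only Xist, and without selumetinib 1 or 2 there were 1 and 4. Chosen after seeing the data, PBS 2 and 3 as controls gave 4 and 2, and leaving out selumetinib 1 and 2 gave 3 and 4. For selumetinib 3 alone the counts of 0 and 0 became 3 and 4 with only its 4 libraries in the fit, whose spread comes from PBS 4 to 6 alone. The cause of these shifts was not tested.

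Single genes whose log2 fold change took the other sign are given by setting. With Y-linked expression as a covariate, a fit that rests on PBS 1 and carboplatin 1, they were Eif2s3y 0.074, Ddx3x -0.045, Pet112 -0.072, Csf3r 0.52, Etnppl 0.61, Canx 0.21, Atf4 -0.63, Etv1 0.099, Nf1 0.45, Rasa2 0.15, Mbp 0.10, Omg 0.43, Ermn 0.038, Scd2 0.31, Sox9 0.21, Prl -1.53, Spry2 0.12 and Spred1 0.56. With all 6 PBS libraries as controls they were Dbp -0.94, Hyou1 0.16, Atf4 -0.40, Nf1 0.10 and Spred1 0.15. With PBS 2 and 3 as controls, chosen after seeing the data, they were Dbp -1.54, Ngp 1.22, Hspa5 0.38, S100a8 1.00, S100a9 0.41, Hbb-bs 1.37, Alas2 0.46, Npas2 0.21, Etnppl 0.028, Calr 0.14, Hsp90b1 0.21, Pdia6 0.47, Manf 0.25, Xbp1 0.23, Hyou1 0.62, Atf4 -0.19, Nf1 0.049, Gh 6.36, Per2 -0.58, Per3 -0.22, Ms4a1 0.79 and Spred1 0.080. With selumetinib 1 and 2 left out they were Csf3r 0.042, Spry4 -0.17, Mbp 0.023, Opalin 0.19, Sst -0.61, Gh 0.40, H2-Aa 0.38 and Cd74 0.13. By limma voom it was Spred1 0.027. Over the fits that left out 1 library, the log2 fold change ran for Atf4 from -0.005 (without selumetinib 2) to 0.091 (without selumetinib 1), Spry4 from -0.11 (without selumetinib 1) to 0.23 (without selumetinib 3), Prl from -1.47 (without selumetinib 3) to 7.74 (without PBS 6), Gh from -7.75 (without selumetinib 3) to 3.15 (without PBS 6) and Spry2 from -0.19 (without PBS 4) to 0.052 (without PBS 6).

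No paired analysis was possible because PBS 4 to 6 and selumetinib 1 to 3 share no replicate number. Depth limits Plaur, Lcn2 and other genes near 1 CPM. Sex-linked expression and treatment cannot be told apart, the group has 3 libraries, 2 of them with brain markers, and PBS 4 to 6 stand apart from PBS 1 to 3 in blood, ER chaperone and clock genes.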
